A study of Mus musculus with 4 samples.

Results

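The 93 genes described here were those of the deposited gene table whose symbols name a subunit of the mitochondrial respiratory chain (symbols that start with Ndufa, Ndufb, Ndufc, Ndufs, Ndufv, Uqcr, Atp5 or Cox4 to Cox8, and Sdha, Sdhb, Sdhc, Sdhd and Cyc1), out of 24421 rows in all. Of these, 84 encode subunits, their isoforms or close relatives: 36 of complex I, 4 of complex II, 9 of complex III, 20 of complex IV and 15 of complex V. The other 9 were taken in by the start of the symbol and are not subunits. They are the complex I assembly factors Ndufaf1 to Ndufaf7 and the genes Atp5s and Atp5sl.

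The respiratory chain sits in the inner mitochondrial membrane. Complex I (NADH dehydrogenase) and complex II (succinate dehydrogenase) pass electrons to ubiquinone, complex III passes them on to cytochrome c, complex IV (cytochrome c oxidase) passes them to oxygen, and complex V (ATP synthase) uses the proton gradient to make ATP. Most subunits are encoded in the nucleus, and a few are encoded in mitochondrial DNA. Some nuclear genes of complex IV have isoforms that are used in heart and skeletal muscle, lung or testis. Mature neutrophils are known for few mitochondria and a reliance on glycolysis.

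Both groups were C57BL/6 mice 8 weeks old, and every mouse had been given 2.5% dextran sulfate sodium (DSS), which damages the gut lining, for 5 days and plain water for another 2 days. The groups were Usp25+/+ (mice WT-139 and WT-140), with an intact gene for the ubiquitin-specific protease Usp25, and Usp25-/- (mice KO-826 and KO-850), without it. No mouse without DSS was part of the design, and the labels do not say how the Usp25-/- allele was made, so the comparison is between genotypes after DSS alone. Polyadenylated RNA was sequenced from tissue labelled as a short piece of colon. Levels are FPKM, fragment numbers corrected for transcript length and library size, with library depth unknown. A pair of values joined by "versus" to another pair gives mice WT-139 and WT-140 first, then KO-826 and KO-850.

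Usp25 stood at 38.5 and 16.6 FPKM in the Usp25+/+ mice and at 2.65 and 1.71 FPKM in the Usp25-/- mice. Its log2 difference was -3.07 ± 0.47 (limma, adjusted p = 0.968). It was -3.65 without mouse WT-140, which leaves mouse WT-139 as the only Usp25+/+ mouse. The markers did not match the labelled colon. Of 10 colon epithelium markers, 8 were below 1 FPKM in all 4 mice, with Zg16, Aqp8 and Cdx1 listed at 0, while 8 lung epithelium markers summed to 2249 to 5243 FPKM. The sum over 9 neutrophil markers was 40471 FPKM in mouse WT-139 and 713 to 1993 FPKM in the other 3 mice. Fewer genes were listed at 0 in mouse WT-139, 3862 against 8813 (WT-140), 7175 (KO-826) and 8612 (KO-850). Mouse WT-139 stands apart in these ways from the other Usp25+/+ mouse. The counts and medians of the complexes and lists are therefore also given without it. The part of either difference in the results was not tested. In RNA from whole tissue, fewer cells of a type and less RNA per cell cannot be told apart.

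Respiratory chain genes were lowest in mouse WT-139 and of similar level in the other 3 mice, 1 of which is also Usp25+/+. The median over the 89 genes tested (at least 1 FPKM in at least 2 mice) was 53.0 FPKM for WT-139, 95.8 FPKM in mouse WT-140, 99.7 FPKM in mouse KO-826 and 83.9 FPKM in mouse KO-850. Together the 93 genes made up 1.23% of all FPKM of mouse WT-139, while the other 3 mice had 1.86% to 2.12%. Mouse WT-139 had the lowest level of the 4 mice for 74 of the 89 tested genes (83.1%, against 39.1% of all 12103 tested genes). Mouse KO-826 had the highest level for 48 of them (53.9%, against 25.5% of all tested genes). Mice of the same genotype also differed: KO-826 was above KO-850 for 69 of the 89 genes, and WT-140 was above WT-139 for 80. Across genotypes, KO-850 was above WT-140 for 36.

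**Figure D1:**
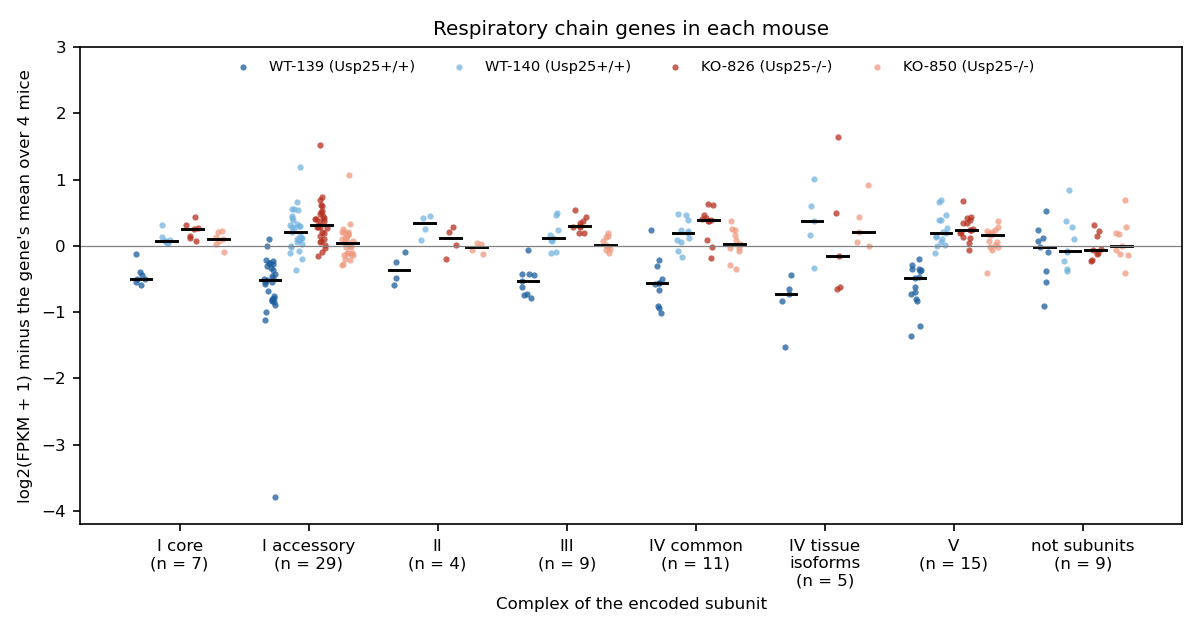
Level of each of the 89 tested genes in each mouse, as log2(FPKM + 1) minus the gene's mean over the 4 mice on the vertical axis, by complex on the horizontal axis; each point is 1 gene and black bars are medians. Mouse WT-139 lies lowest in every complex but not among the 9 genes that are not subunits, and its far low point in complex I is Ndufs5 at 1.31 FPKM.

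No respiratory chain gene differed between the genotypes past the threshold. With limma, 0 of the 89 genes reached an adjusted p of 0.05 (Benjamini-Hochberg over all tested genes, of which 0% were called), and the smallest adjusted p among the 89 was 0.968. At an unadjusted p under 0.05 there was 1 gene, Cox7a1, or 1.12% of the 89, against 3.30% of all tested genes. Their mean log2 level was higher in Usp25-/- mice for 73 of 89 genes (82.0%, against 53.6% of all tested genes). The median log2 difference was 0.33, with a median of 0.03 over all tested genes. Levels of the genotypes did not overlap for 24 of the 89 genes that were higher in Usp25-/- (27.0%, against 19.0% of all tested genes) and for 2 that were lower (2.25%, against 14.7%). Those 2 were Sdha and Cox7a2.

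The excess of genes with a higher mean was absent without mouse WT-139. The median log2 difference of the 89 genes became -0.023, with -0.0093 over all tested genes, and 42 genes were higher (47.2%, against 49.1% of all tested genes) and 47 lower. Without mouse WT-140 the median was 0.70 and 81 genes were higher, with 1 Usp25+/+ mouse left that is assumed to vary like the others. Limma then called 92 of 12103 genes (0.760%), 6 of them higher in Usp25-/- (0.0496%), and 1 respiratory chain gene was among them, Ndufs5 (adjusted p = 0.0306).

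Complex I had 30 of 36 genes with a higher mean in Usp25-/- mice, a median log2 difference of 0.37, and 0.045 without mouse WT-139. Its 7 nuclear core subunits, most of which carry the flavin and iron-sulfur centres or the ubiquinone site, were all lowest in mouse WT-139. Groups did not overlap for 5 of the 7, all higher in Usp25-/- mice (19.0% of all tested genes were), and Ndufs1 and Ndufs3 overlapped. The most abundant complex I genes were the accessory subunits Ndufa6, Ndufa2 and Ndufb7. Ndufa6 stood at 104 and 173 FPKM (Usp25+/+) and at 200.3 and 137 FPKM (Usp25-/-). Ndufa2 stood at 84.6 and 121 versus 159 and 104 FPKM. Ndufb7 stood at 64.6 and 135 versus 138 and 122 FPKM, so that the groups overlapped for each of these 3 genes.

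Ndufs5, an accessory subunit of complex I, was chosen for description after its values were seen, because 1 mouse lay far from the rest. Its level was 1.31 FPKM in mouse WT-139, 72.5 FPKM in the other Usp25+/+ mouse, and 91.4 (KO-826) and 66.3 FPKM (KO-850) in the Usp25-/- mice. The 3 higher values include both genotypes, and the log2 difference was 2.60 ± 1.57 (SE, adjusted p = 0.968) with all 4 mice and 0.10 without mouse WT-139. In the Gencode annotation of mm9 it is a protein-coding gene at chr4:123389953-123395445 on the minus strand. How the deposited values treat reads shared with copies of such a gene is not given in the sources used here.

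Ndufs4 and Ndufb6, accessory subunits of complex I, kept their direction without mouse WT-139. Ndufs4 stood at 27.6 and 26.3 FPKM (Usp25+/+) and at 55.6 and 33.6 FPKM (Usp25-/-) (log2 difference 0.66 ± 0.35, or 0.70 with that mouse left out). Ndufb6 stood at 38.6 and 53.9 versus 88.7 and 61.6 FPKM (log2 difference 0.68 ± 0.36, or 0.45 with it left out). For both genes the Usp25+/+ mice lay below the Usp25-/- mice, yet mouse KO-826 was well above mouse KO-850, and neither passed limma (adjusted p = 0.968). In the other direction, the accessory subunit gene Ndufb8 stood at 82.6 and 136 versus 99.7 and 85.6 FPKM, which overlap.

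Complex II had 3 of 4 genes with a higher mean in Usp25-/- mice and a median log2 difference of 0.10. The exception was its catalytic subunit. Sdha, the flavoprotein that oxidises succinate, stood at 55.1 and 78.9 FPKM (Usp25+/+) and at 50.7 and 53.5 FPKM (Usp25-/-). Both Usp25-/- mice thus lay below both Usp25+/+ mice, with a log2 difference of -0.34 ± 0.32 (adjusted p = 0.968) that was -0.59 without mouse WT-139. Sdhb, the iron-sulfur subunit, stood at 110.1 and 139.3 versus 152 and 126 FPKM. The membrane anchors overlapped as well, Sdhc with 73.4 and 133 versus 135 and 114 FPKM and Sdhd with 68.1 and 131 versus 97.3 and 98.2 FPKM. Without mouse WT-139 all 4 genes of the complex were lower in Usp25-/- mice, with a median log2 difference of -0.26.

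All 9 complex III genes had a higher mean in Usp25-/- mice, with a median log2 difference of 0.35, and 5 of 9 did so without mouse WT-139 (median 0.083). The hinge protein gene Uqcrh was the most abundant, at 154 and 234 FPKM (Usp25+/+) and at 299.6 and 224 FPKM (Usp25-/-). Uqcrq, a small subunit, stood at 113 and 268 versus 232 and 182 FPKM. Uqcr10, another small subunit, stood at 133 and 199.8 versus 232 and 167 FPKM. In each of these, mouse WT-140 lay above mouse KO-850.

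**Figure D2:**
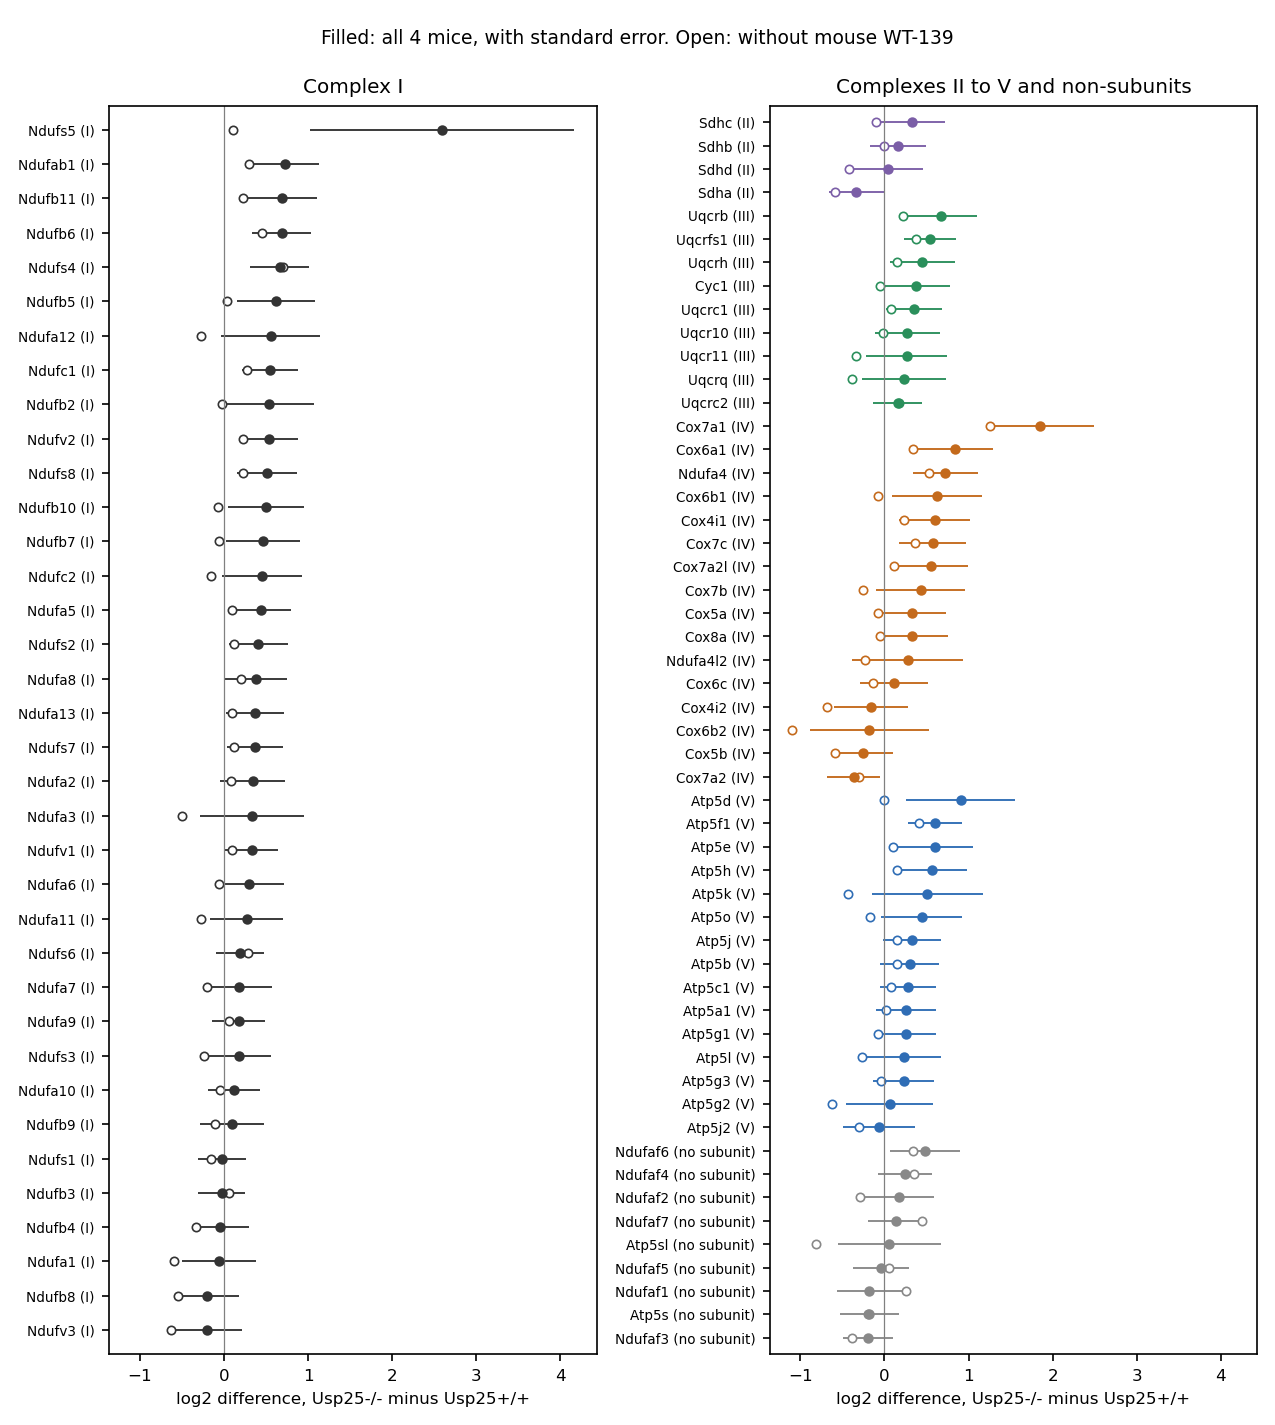
Log2 difference, Usp25-/- minus Usp25+/+, on the horizontal axis for each of the 89 tested genes, 1 row per gene with its complex in brackets; filled points with bars are all 4 mice and the standard error, open points leave out mouse WT-139. Most filled points lie right of 0, 73 of 89, and the open points lie about evenly on both sides, 42 right and 47 left.

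Complex IV had 12 of 16 tested genes with a higher mean in Usp25-/- mice and a median log2 difference of 0.38, which became -0.076 without mouse WT-139, with 6 genes higher. Cox4i1, the common form of subunit 4, was the most abundant gene of the whole chain, at 366 and 604 FPKM (Usp25+/+) and at 778 and 651 FPKM (Usp25-/-) (log2 difference 0.60 ± 0.42). Cox6a1, the common form of subunit 6A, stood at 110.1 and 224 versus 292 and 274 FPKM (log2 difference 0.84 ± 0.44). Both genes were higher in both Usp25-/- mice, and the log2 differences were 0.24 for Cox4i1 and 0.34 for Cox6a1 without mouse WT-139. Ndufa4, a subunit first assigned to complex I, stood at 200.4 and 264 versus 459 and 315 FPKM, and Cox7c, subunit 7C, at 201 and 271 versus 435 and 278 FPKM. Without mouse WT-139 their log2 differences were 0.53 and 0.36. None of the 4 passed limma (adjusted p = 0.968).

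Cox7a2, the common form of subunit 7A, went the other way. It stood at 147 and 135 FPKM (Usp25+/+) and at 122 and 97.1 FPKM (Usp25-/-). The log2 difference was -0.36 ± 0.32 (adjusted p = 0.968), or -0.31 when mouse WT-139 was left out. It was the only complex IV gene of those tested with its highest level in mouse WT-139. Its relative Cox7a2l, which joins complexes III and IV, followed the majority instead, at 117 and 218 versus 273 and 204 FPKM. Cox5b, subunit 5B, stood at 101 and 161 versus 103 and 111 FPKM, a log2 difference of -0.26 ± 0.36 with overlapping groups, or -0.59 without mouse WT-139.

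Cox7a1, the heart and skeletal muscle form of subunit 7A, had the smallest unadjusted p of all 89 genes (0.0331, adjusted p = 0.968). It stood at 0.359 and 2.09 FPKM (Usp25+/+) and at 11.2 and 3.48 FPKM (Usp25-/-), so the groups did not overlap, but mouse KO-826 alone was far above the others. The log2 difference was 1.85 ± 0.64, and 1.26 without mouse WT-139. Its share of the summed FPKM of Cox7a1 and Cox7a2 was 0.245% and 1.53% in Usp25+/+ mice and 8.39% and 3.46% in Usp25-/- mice. It is a protein-coding gene at chr7:30969190-30971047 on the plus strand of mm9. Markers of tissues that use this form were low. All 8 heart muscle markers summed to 4.53 and 2.25 versus 4.37 and 3.93 FPKM, with Nppa listed at 0. The 7 skeletal muscle markers summed to at most 2.28 FPKM in any mouse. The 3 brown fat markers summed to 1.09 and 1.21 versus 4.54 and 2.71 FPKM, mostly Cidea, with Ucp1 at no more than 0.406 FPKM. Mast cell markers (6, of which 3 were below 1 FPKM in all mice) summed to 98.4 and 159.9 versus 1599 and 677 FPKM, and the 10 colon epithelium markers to 5.17 and 3.27 versus 54.0 and 7.95 FPKM. Both sums were highest in mouse KO-826, as Cox7a1 was, and each came mostly from 1 or 2 genes. Mcpt1 and Mcpt2 made up most of the mast cell sum, while Kit stood at 5.85 and 5.55 versus 3.98 and 4.92 FPKM and Cpa3, Tpsb2 and Cma1 were at or near 0. Krt20 made up most of the colon sum, at 4.31 and 3.11 versus 52.4 and 7.35 FPKM. Their part in the result was not tested.

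The other tissue forms of complex IV were minor in every mouse. Cox4i2, the lung-enriched form of subunit 4, stood at 1.51 and 4.16 versus 2.05 and 2.39 FPKM, no more than 0.685% of Cox4i1 and Cox4i2 together. Cox6b2, the testis form of subunit 6B, was the highest of them, at 5.28 and 21.4 versus 6.24 and 14.1 FPKM, or 4.79% and 7.13% against 2.20% and 5.28% of the Cox6b pair. It spread more within each genotype than between them. The 5 testis germ cell markers were listed at 0 in all mice. Cox7b2 and Cox8b were listed at 0 in every mouse. Cox8c was listed at 0 except at 1.04 FPKM in mouse WT-139, and Cox6a2 stood at 1.41 FPKM there, at 0.344 FPKM in mouse KO-826 and at 0 in the others. Ndufa4l2, a relative of Ndufa4 that low oxygen induces, was listed at 0 in mice WT-139 and KO-826 and stood at 1.03 and 1.97 FPKM in mice WT-140 and KO-850. Cox7b2, Cox8b, Cox8c and Cox6a2 were too low to test. The common forms Cox6b1, Cox7b and Cox8a stood at 105 to 279, 52.3 to 138 and 180.1 to 343 FPKM, each lowest in mouse WT-139.

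**Figure D3:**
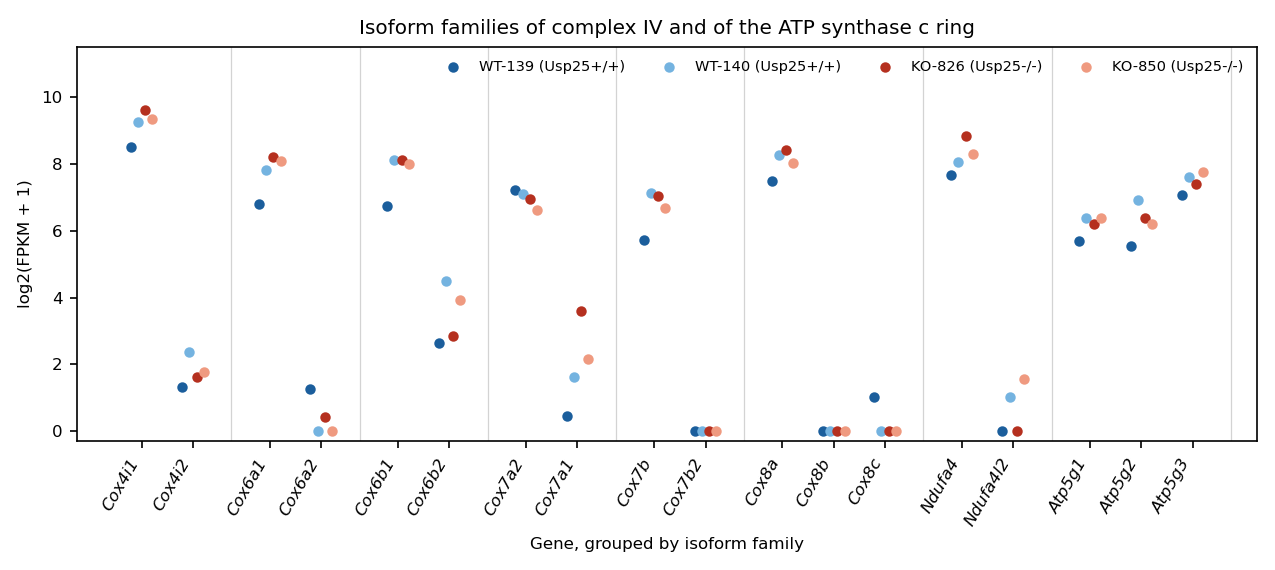
Isoform families along the horizontal axis and log2(FPKM + 1) up the vertical axis; every gene has 4 points, 1 per mouse. The common forms stand far above the tissue forms in every mouse, Cox7a1 reaches 11.2 FPKM in mouse KO-826, and the 3 Atp5g genes lie close together.

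Complex V had 14 of 15 genes with a higher mean in Usp25-/- mice, a median log2 difference of 0.30, and -0.0081 without mouse WT-139 with 7 genes higher. Atp5b, the catalytic beta subunit, stood at 333 and 408 FPKM (Usp25+/+) and at 480.1 and 428 FPKM (Usp25-/-) (log2 difference 0.30 ± 0.35, or 0.15 without mouse WT-139). Atp5a1, the alpha subunit, stood at 202 and 282 versus 309 and 263 FPKM. Atp5j2, the f subunit of the membrane part, was the 1 gene with a lower mean, at 331 and 456 versus 480.4 and 286 FPKM. Without mouse WT-139, 4 of the 5 genes of the F1 head were higher in Usp25-/- mice (median 0.077), as were 3 of the 4 of the peripheral stalk (median 0.15). Of the 3 genes each of the membrane part and of the c ring 0 were (medians -0.30 and -0.081).

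The c subunit of the ATP synthase ring is encoded by 3 genes whose products share 1 mature protein. Atp5g3 supplied the largest part of their summed FPKM in each mouse, at 58.1% and 49.1% in Usp25+/+ mice and 52.0% and 58.0% in Usp25-/- mice. Atp5g1 stayed between 20.7% and 22.5%. Atp5g2 varied most, from 19.7% in mice WT-139 and KO-850 to 25.5% in mouse KO-826 and 30.3% in mouse WT-140. In FPKM, Atp5g2 stood at 45.6 and 120.3 against 82.6 and 72.8, Atp5g1 at 51.2 and 82.1 against 73.0 and 82.5, and Atp5g3 at 134 and 195 against 168 and 214. The genotypes overlapped for all 3 levels and for the shares of Atp5g2 and Atp5g3. The Atp5g1 share was 22.2% and 20.7% in Usp25+/+ mice and 22.5% and 22.3% in Usp25-/- mice, which do not overlap but lie close together.

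The order of the complexes by median FPKM of their tested genes was similar in every mouse. Complex I was lowest, at 41.5 and 69.9 versus 82.5 and 69.7 FPKM. Complexes IV and V were the highest in each mouse, with 108 and 191 versus 209 and 174 FPKM for complex IV and 113 and 165 versus 182 and 163 FPKM for complex V. Complexes II and III lay between them.

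The 9 genes that are not subunits were expressed at 1.19 to 18.3 FPKM. Of the 9, 5 had a higher mean in Usp25-/- mice, the median log2 difference was 0.059 with and without mouse WT-139, and mouse WT-139 was lowest for 3. Ndufaf1 and Ndufaf7, assembly factors of complex I, were highest in that mouse, at 6.36 and 8.56 FPKM, against 3.03 to 3.94 and 5.26 to 7.98 FPKM in the other 3. Ndufaf3, another assembly factor, stood at 13.8 and 18.3 versus 14.2 and 13.3 FPKM. Ndufaf2, Ndufaf4, Ndufaf5, Ndufaf6 and Atp5s overlapped between the genotypes, as did Atp5sl, at 2.57 and 11.0 versus 5.12 and 6.58 FPKM. Whether these lower genes differ from the subunits in their response was not tested.

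Respiratory chain transcripts are short, and the level of short transcripts in general was low in mouse WT-139. Lengths were those of the longest coding transcript of a gene in the mm9 Gencode annotation, which holds 89 of the 93 symbols once. The median was 955 bases over 85 tested respiratory chain genes and 2863 bases over all 10756 tested genes with a length. Among other genes of up to 1000 bases, mouse WT-140 was above mouse WT-139 by a median of 0.52 on the log2 scale (703 genes), and among respiratory chain genes of that length by 0.78 (47 genes). For lengths over 1000 and up to 2000 bases the medians were 0.37 over 2401 other genes and 0.54 over 27 respiratory chain genes. For genes whose longest transcript was longer still they were -0.034 over 7567 other genes and 0.67 over only 11 respiratory chain genes. The 11 include Atp5g1 (4715 bases), Ndufb2 (4371 bases) and the non-subunits Atp5sl and Ndufaf4. Which transcript of a gene was expressed is not known, so the class of a gene may not match its main mRNA.

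Between the genotypes, other genes had median log2 differences of 0.28, 0.19 and -0.030 in the 3 length classes, from short to long, and respiratory chain genes had 0.33, 0.35 and 0.25. In the shortest class 73.0% of other genes and 83.0% of respiratory chain genes had a higher mean in Usp25-/- mice. Without mouse WT-139 the other genes had medians of 0.030, -0.0077 and -0.014. Across the 10756 genes, Spearman's rho of length with the log2 difference was -0.29, and -0.0049 without mouse WT-139. Genes share the libraries and are not independent, so these are descriptions. The part of transcript length in the result was not tested.

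**Figure D4:**
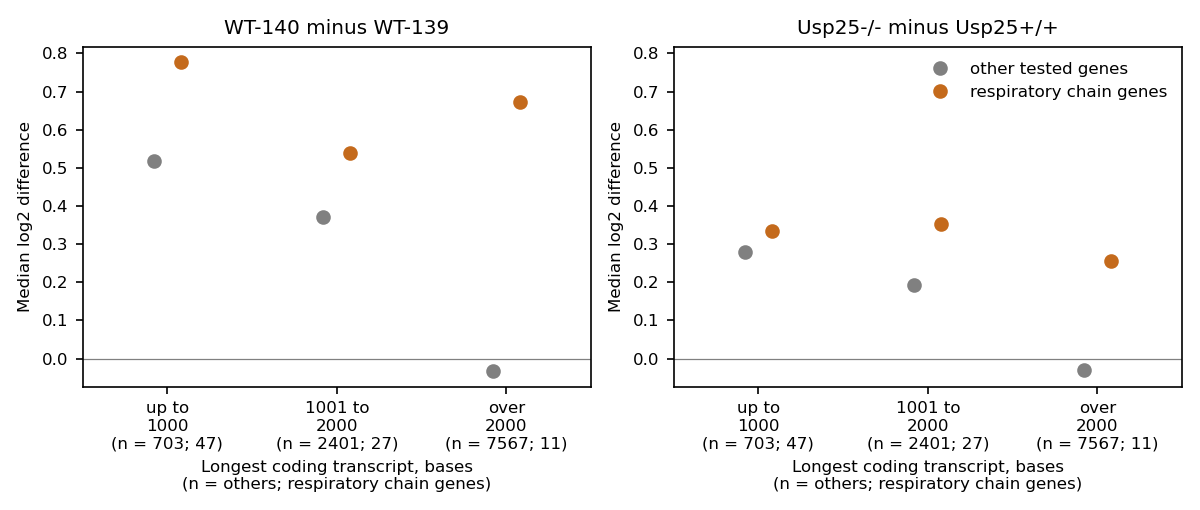
Median log2 difference on the vertical axis by length of the longest coding transcript on the horizontal axis, for mouse WT-140 minus mouse WT-139 (left) and Usp25-/- minus Usp25+/+ (right); grey points are other tested genes and orange points are respiratory chain genes. Other genes of up to 1000 bases stand at 0.52 on the left and 0.28 on the right, those over 2000 bases at -0.034 and -0.030, and the respiratory chain genes stay above them in each class.

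Promoters of the family are shown as a description, since 74 of its 89 tested genes were lowest in the same mouse, WT-139. Of other tested genes of up to 1000 bases, 60.3% were also lowest there. A shared control of the family was not tested. RefSeq promoter sequences (GRCm38.p6, from 250 bases before to 50 bases after the start) matched 76 of the 93 genes, in 82 promoters. A match to the NRF1 motif (GCGCA, any base, then GCGC) on either strand stood in 24.4% of these 82 promoters and in 4.60% of all 32851 promoters of that length. The ETS motif CCGGAAG, of the kind bound by the NRF2 factor Gabpa, stood in 20.7% against 8.86%, and the YY1 motif ANATGGCGG in 12.2% against 1.86%. The 82 include genes that are not subunits, and overlapping windows of Atp5sl and of Ndufa5 hold the same match. Counted once per gene, the shares were 25% against 5.19% (NRF1), 22.4% against 9.93% (ETS) and 11.8% against 2.19% (YY1). The genes compared with include those not expressed here. No match overlapped a match to another motif in any of the 82. Shown are Cox6a1, whose levels were higher in both Usp25-/- mice, Sdha, which was lower in both, Ndufs5, low in 1 mouse, and Cox7a1, the muscle form, each 5′ to 3′ with the matches in capitals.
Cox6a1: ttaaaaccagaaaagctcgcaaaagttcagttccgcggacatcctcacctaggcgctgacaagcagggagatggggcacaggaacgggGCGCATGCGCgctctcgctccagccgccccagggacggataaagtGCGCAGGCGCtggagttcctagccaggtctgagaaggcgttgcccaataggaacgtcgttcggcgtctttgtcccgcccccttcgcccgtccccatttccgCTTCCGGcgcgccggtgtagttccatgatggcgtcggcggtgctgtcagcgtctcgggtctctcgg
Sdha: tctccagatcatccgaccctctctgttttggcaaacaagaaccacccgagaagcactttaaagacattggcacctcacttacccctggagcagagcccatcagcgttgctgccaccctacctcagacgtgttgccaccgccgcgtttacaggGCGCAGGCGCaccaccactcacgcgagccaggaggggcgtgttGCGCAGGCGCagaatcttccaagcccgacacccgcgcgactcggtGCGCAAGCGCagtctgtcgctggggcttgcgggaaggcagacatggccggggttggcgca
Ndufs5: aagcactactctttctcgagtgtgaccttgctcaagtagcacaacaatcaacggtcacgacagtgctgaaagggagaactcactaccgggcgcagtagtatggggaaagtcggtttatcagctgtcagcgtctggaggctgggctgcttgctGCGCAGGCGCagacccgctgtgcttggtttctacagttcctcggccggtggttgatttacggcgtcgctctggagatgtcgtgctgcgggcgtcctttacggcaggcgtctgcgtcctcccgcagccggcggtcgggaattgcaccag
Cox7a1: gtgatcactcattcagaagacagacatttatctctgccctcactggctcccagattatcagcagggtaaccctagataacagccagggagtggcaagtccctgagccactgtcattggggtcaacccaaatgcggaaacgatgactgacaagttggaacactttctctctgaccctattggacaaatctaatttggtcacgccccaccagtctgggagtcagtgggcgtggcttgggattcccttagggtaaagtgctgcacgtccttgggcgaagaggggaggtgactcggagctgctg

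These promoters lie at chr5:115348909-115349208 (minus strand), chr13:74350191-74350490 (minus), chr4:123718137-123718436 (minus) and chr7:30183921-30184220 (plus), in that order, in GRCm38.p6. The promoter of Cox6a1 held 2 NRF1 matches and 1 ETS match, and that of Sdha held 3 NRF1 matches, although their differences between the genotypes had opposite signs. The Ndufs5 promoter held 1 NRF1 match, and the Cox7a1 window held none of the 3 motifs. Over the tested genes with a promoter, the median log2 difference was 0.29 for the 19 with an NRF1 match and 0.33 for the 55 without. A match is a description of the letters and does not show binding.

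Other genes of mitochondrial function were read from lists, and none of their members passed limma over all tested genes. Tested assembly factors of complex IV had a higher mean in Usp25-/- mice for 19 of 24, with a median log2 difference of 0.26, and for 8 of 24 without mouse WT-139 (median -0.11). Cox20 and Cox16, which help mature complex IV, stood at 28.4 and 17.2 versus 38.6 and 36.2 FPKM and at 7.53 and 21.2 versus 32.7 and 22.2 FPKM. Proteins of the large subunit of the mitochondrial ribosome had a higher mean for 42 of 48 (median 0.29), and for 28 of 48 without mouse WT-139 (median 0.058). Of these, Mrpl50 and Mrpl47, stood at 7.60 and 7.81 versus 13.7 and 11.1 FPKM and at 4.41 and 6.09 versus 9.91 and 7.78 FPKM.

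Of 20 tested genes of the mitochondrial outer membrane, import and inner membrane structure, 17 had a higher mean in Usp25-/- mice (median 0.31), and 16 did without mouse WT-139 (median 0.15). Vdac3, a channel of the outer membrane, stood at 53.4 and 49.7 versus 74.2 and 69.9 FPKM. The complex II assembly list had 4 members, 3 of them higher (median 0.57, and 0.39 without mouse WT-139). Sdhaf3 and Sdhaf4, which help mature the iron-sulfur and flavin subunits, stood at 0.797 and 2.99 versus 4.21 and 5.98 FPKM and at 9.49 and 15.9 versus 31.2 and 18.3 FPKM. The assembly factors of complex I had 7 of 8 higher (median 0.28) and 3 of 8 without mouse WT-139 (median -0.042). Those of complex III had 2 of 5 higher with and without that mouse (median -0.22 in both). All 6 tested genes of the complex V list were higher (median 0.42, and 0.084 without mouse WT-139), among them Atpif1, the inhibitor of the ATP synthase, at 34.8 and 55.9 versus 75.5 and 68.1 FPKM.

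Genes of the tricarboxylic acid cycle, which feeds the chain, had medians over 13 members of 33.6 and 37.2 versus 42.1 and 37.9 FPKM. Of the 13, 10 had a higher mean in Usp25-/- mice (median 0.13), and 7 did without mouse WT-139 (median 0.011). Fh1 (fumarate hydratase) and Suclg1 (a subunit of succinyl-CoA ligase) stood at 26.3 and 36.5 versus 51.0 and 37.9 FPKM and at 33.6 and 37.2 versus 50.6 and 44.7 FPKM. Regulators of mitochondrial transcription and DNA were split, with 9 of 17 tested genes higher (median 0.031) and 8 of 17 without mouse WT-139 (median -0.043). Tfam, which packages and transcribes mitochondrial DNA, stood at 4.21 and 4.37 versus 6.99 and 7.24 FPKM, close within each genotype (log2 difference 0.62, adjusted p = 0.968). Cycs, the cytochrome c that carries electrons to complex IV, stood at 30.2 and 21.9 versus 33.7 and 23.7 FPKM. Ubiquinone synthesis had 7 of 12 genes higher (median 0.063) and 5 of 12 without mouse WT-139 (median -0.16), and its gene Coq2 stood at 12.6 and 9.92 versus 17.3 and 17.1 FPKM. Other electron entry to ubiquinone had 6 of 7 higher in both cases (median 0.22, and 0.049 without that mouse). Nucleotide exchange and uncoupling had 4 of 6 higher (median 0.12), and 2 of 6 without it (median -0.22). Of 26 symbols listed for subunits encoded in mitochondrial DNA, 0 had a row among the deposited values, so these subunits were not analysed here.

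**Figure D5:**
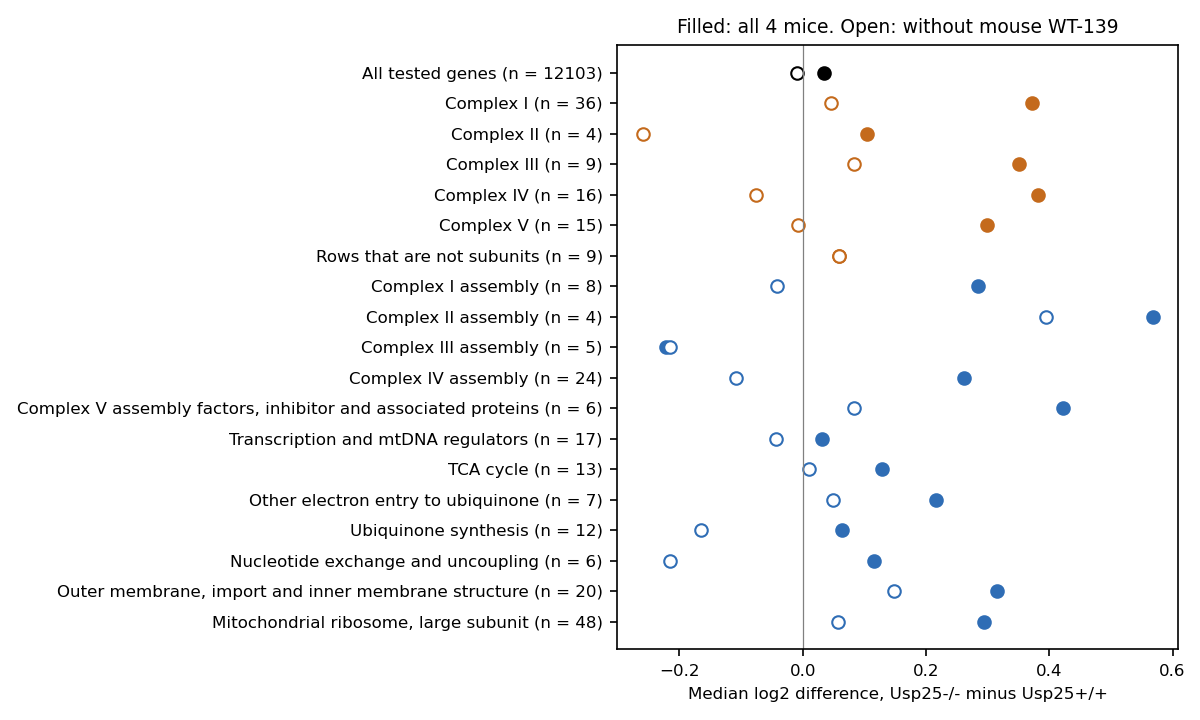
Median log2 difference, Usp25-/- minus Usp25+/+, on the horizontal axis for each complex and each other list with more than 3 tested genes; filled points are all 4 mice and open points leave out mouse WT-139. Complexes I, III, IV and V stand at 0.30 to 0.38 with all 4 mice and at -0.076 to 0.083 without mouse WT-139, next to all tested genes at 0.03 and -0.0093. Complex II stands at 0.10 with all 4 mice and at -0.26 without mouse WT-139.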

How the data were processed

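The authors deposited 1 table of FPKM values with 1 column for each of 4 mice; Bowtie 0.12.2 and the build mm9 are named, with no role, per the submitters' processing notes, while the FPKM tool, its annotation and how it treated shared reads were not given in the sources used here. From these deposited FPKM values, 27 symbols turned into dates were left out, and 12103 of 24394 genes with at least 1 FPKM in at least 2 mice were tested. Values entered as log2(FPKM + 1), on which changes of low genes come out too small, and the genotypes were compared (Usp25-/- minus Usp25+/+) with limma 3.58.1 in R 4.3.3 (mean-variance trend, two-sided, Benjamini-Hochberg adjustment over all tested genes, threshold 0.05). The labels give no batch, litter or pairing. A p-value here rests on the spread among 4 mice, 2 in each group, which limma draws toward the trend over all tested genes. An exact permutation test of 2 against 2 cannot go below 0.333. The members and lists were chosen with earlier results of these data known, so lists are described by counts and medians and not tested. Sums, shares, lengths and motif matches used Python 3.11.15 with pandas 2.3.3, and plots matplotlib 3.10.9. In a single simulated table of this comparison with 12103 genes, limma found 0% of the 50 genes given a 2-fold change. It found 2% at 4-fold, 44% at 8-fold and 66% at 16-fold, and made 0 false calls. That table had independent noise, spreads shuffled between genes and changes only in genes of higher mean level. A shift shared by many genes in 1 mouse was not simulated, so recovery and false calls in the real data may differ.

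Genes named from the chain were the 3 most abundant of each complex, the 5 with the smallest p in each direction, all isoform families and all rows that are not subunits; from other lists they were taken among the 4 with the smallest p. Ndufs5, Ndufs1, Ndufs3, Ndufa12 and Atp5k were named after their values were seen, and Ndufb2 was named for its transcript length. Error is SE of the log2 difference from limma, which uses the same adjusted spread and is not the spread of the mice alone. Marker lists for macrophages, T cells, B cells, mast cells, smooth muscle and endothelium were also read. Their summed levels were 1092 to 1791, 19.6 to 77.1, 3.55 to 20.6, 98.4 to 1599, 13.3 to 20.1 and 43.1 to 114.5 FPKM over the 4 mice.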

Additional observations from a re-analysis of the deposited data

How the results depend on the processing

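No paired analysis was possible because the labels give no replicate numbers or litters that the genotypes share. With 1 mouse left out in turn, the number of genes called ran from 0 to 92, with 92 called when mouse WT-140 was left out. Of the 89 tested respiratory chain genes, 42 to 81 then had a higher mean in Usp25-/- mice, against 73 with all 4 mice. The number was 72 without mouse KO-826, 73 without mouse KO-850 and 81 without mouse WT-140. Only without mouse WT-139 did it fall far, to 42. The other alternatives (pseudocounts of 0.1 and 5 FPKM, no filter, a filter at 5 FPKM, a common column total, median-of-ratios scaling, limma without a trend or with robust moderation) called 0 genes, left the median log2 difference between 0.28 and 0.33 and left 72 or 73 of the 89 genes higher, or 69 of the 81 that passed the filter at 5 FPKM. Single genes changed sign when 1 mouse was left out, with these lowest and highest log2 differences: Ndufa6 -0.064 and 0.67, Ndufb7 -0.056 and 0.99, Sdhb -0.0078 and 0.33, Sdhc -0.10 and 0.75, Sdhd -0.42 and 0.52, Uqcrq -0.38 and 0.85, Uqcr10 -0.023 and 0.56, Atp5j2 -0.44 and 0.31, Cox5b -0.59 and 0.077, Ndufb8 -0.55 and 0.16, Cox4i2 -0.68 and 0.36, Cox6b1 -0.073 and 1.33, Cox6b2 -1.10 and 0.73, Cox7b -0.26 and 1.12, Cox8a -0.056 and 0.72, Ndufa4l2 -0.51 and 1.06, Atp5g1 -0.081 and 0.59, Atp5g2 -0.63 and 0.75, Atp5g3 -0.038 and 0.50, Atp5s -0.50 and 0.14, Atp5sl -0.81 and 0.93, Ndufaf1 -0.61 and 0.26, Ndufaf2 -0.29 and 0.64, Ndufaf5 -0.25 and 0.17, and Ndufaf7 -0.16 and 0.45. Sdhd was at -0.0035 with median-of-ratios scaling and Atp5sl at -0.023 with a pseudocount of 5 FPKM. The list is not complete, and other respiratory chain genes also changed sign without mouse WT-139. Examples are Ndufa12 (0.56 to -0.28), Atp5k (0.51 to -0.44) and Ndufs3 (0.18 to -0.23). The cause of these changes was not tested. Without a depth for any library, the error of low values such as those of Ndufa4l2, Cox8c and Cox6a2 is unknown. In the simulated table, changes of 4-fold or less were rarely called.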
